A study of Mus musculus with 12 samples.

Results

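Homologous recombination copies an intact sister sequence into a double-strand break, the Fanconi pathway unhooks DNA crosslinks and hands the break to recombination, and the checkpoint kinases stop the cell cycle while either repair runs. The 34 mouse genes described here encode the central proteins of these pathways, together with the mismatch sensor Msh6. They were taken by gene symbol from the 34513 genes of a count table, and all 34 were found. The rule uses no measured value, but the set was put together with earlier results of these data known. Dividing cells use most of these proteins during DNA replication, and many of the genes are known to be transcribed mainly in cycling cells.

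The study asked how melanocytic cells respond to SX-682, an antagonist of the chemokine receptors CXCR1 and CXCR2. RNA was sequenced from 3 mouse cell lines, each with 2 untreated and 2 SX-682-treated libraries, which gives 6 groups and 12 libraries. MelanA is labelled a nontumorigenic line. B16F0 and B16F10 are melanoma lines of one origin, B16F10 having been selected for metastasis. Each line is a single cell line, and the labels give no genotype, dose or time of treatment. Nor do they say whether the 2 libraries of a group came from separate cultures, so the p-values measure only the spread between these libraries, which may be technical.

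Library totals ran from 48876982 to 85322092 counts. Levels are given as CPM, the counts of a gene relative to the scaled size of its library, with both libraries of a group in each case. A gene was called higher or lower at an adjusted p below 0.05 in edgeR's quasi-likelihood test over 18338 genes. All 34 genes passed the filter on low counts, with 95 to 10483 counts per library.

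The line label was checked against 7 melanocyte markers. In the MelanA libraries the melanosome protein gene Pmel was at 7.53 to 8.70 CPM and tyrosinase (Tyr) at 0.253 to 0.892 CPM. Pmel stood at 3899 to 5350 CPM in the B16 libraries, and Tyr at 276.5 to 516.5 CPM in B16F0 and 17.59 to 70.41 CPM in B16F10. Both are expressed in pigment cells. The lineage factor Sox10 was at 655 to 753 CPM in MelanA and at 351 to 589 CPM in B16. The other markers were also present in MelanA, with Dct at 268 to 359, Tyrp1 at 105 to 143, Mlana at 99.7 to 119 and Mitf at 78.0 to 103 CPM. In the B16 libraries Dct stood at 4719 to 8678, Tyrp1 at 4558 to 8371, Mlana at 464 to 1034 and Mitf at 82.45 to 420 CPM. The summed level of 5 fibroblast markers was 91.9 to 108 CPM in MelanA and 8.43 to 16.7 CPM in the B16 libraries, and none of the 5 was at 0 in MelanA. The summed level of 5 keratinocyte markers was 3.24 to 5.93 CPM in MelanA, with Krt1 at 0 in both untreated libraries, and at most 0.759 CPM in B16. Immune markers (5 genes) summed to 4.49 to 7.19 CPM in MelanA and at most 0.528 CPM in B16, and endothelial markers (4 genes) to 1.45 to 2.43 CPM in MelanA and at most 1.10 CPM in B16. The part of these differences in any comparison of MelanA with B16 was not tested.

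Most of the 34 genes were lower under SX-682. In MelanA 21 fell and 3 rose, against 24.7% and 23.4% of all genes tested. In B16F0 18 fell and 7 rose, against backgrounds of 25.0% and 25.1%. In B16F10 21 fell and 8 rose, against 25.3% and 25.5%. The median log2 fold change of the 34 genes was -0.32 in MelanA, -0.18 in B16F0 and -0.30 in B16F10, where the median of all genes was 0.00 in each line. Of the 34 genes 15 fell in all 3 lines (11.7% of all genes did), and 2, Rad51d and Fance, rose in all 3 (11.3% of all genes did). Rad54b was called in none. Both treated libraries lay below both untreated ones for 25, 22 and 21 of the 34 genes in MelanA, B16F0 and B16F10. Of all genes tested 36.7%, 35.0% and 34.2% did so. Both lay above for 7, 9 and 9 of the 34, against 36.0%, 35.4% and 35.2% of all genes.

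**Figure D1:**
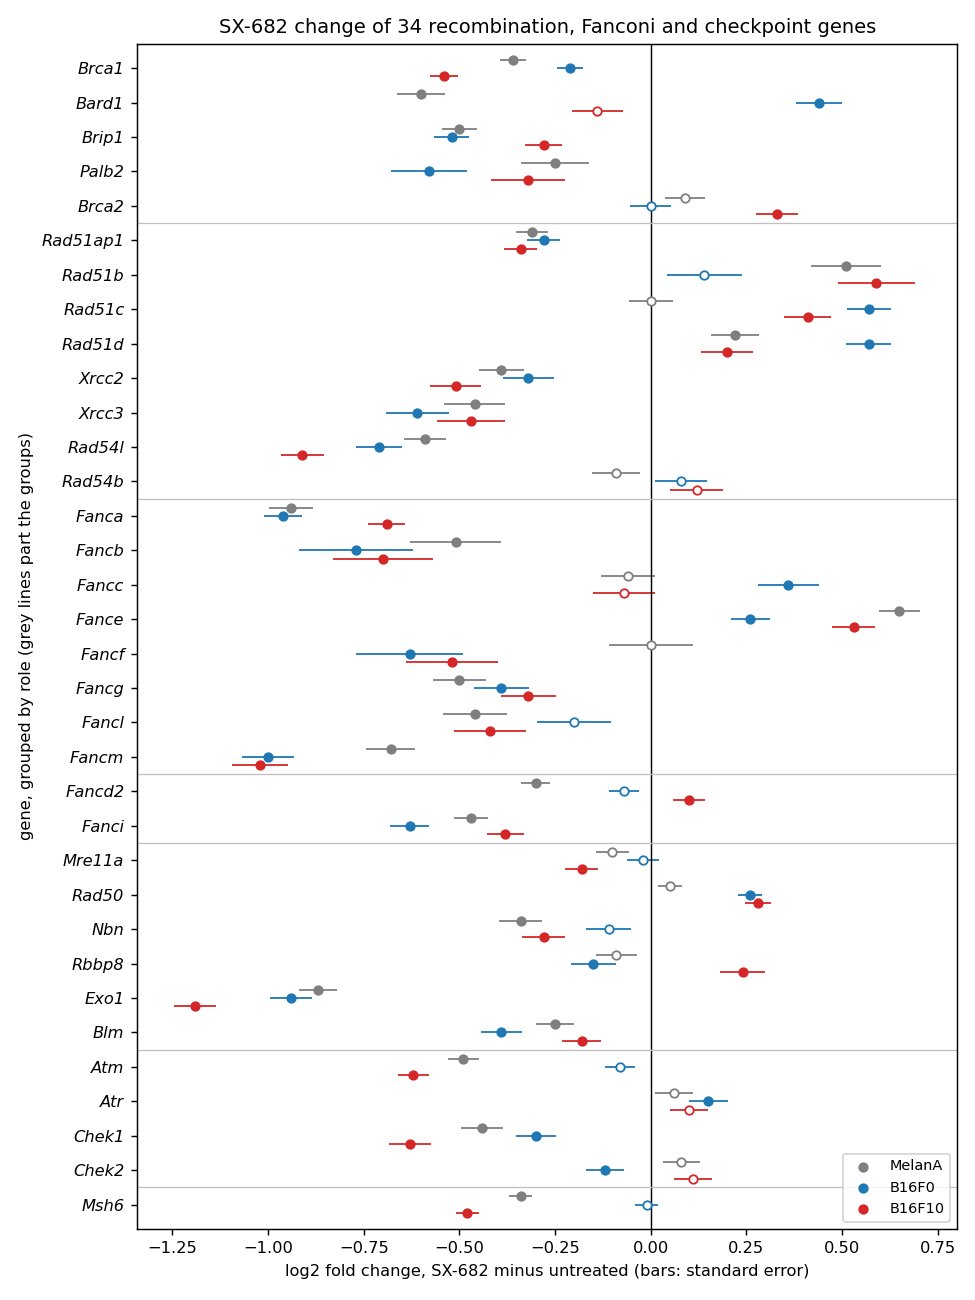
SX-682 change of the 34 genes in MelanA, B16F0 and B16F10, as log2 fold change (x axis) with standard errors, grouped by role (y axis). Filled points passed an adjusted p of 0.05 and open points did not, and the 15 genes with 3 filled points left of 0 include Exo1, Fanca and Fancm.

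A set of promoters is printed because 4 of these genes fell together in all 3 lines and carry the CCAAT box, a short element bound by the factor NF-Y. The sequences are from RefSeq on GRCm38.p6 and end 1 base before the RefSeq start site. Each is written 5′ to 3′ on the gene's strand, and capitals mark CCAAT, or ATTGG where the box lies on the other strand. Chek2 is shown as a gene that did not fall in all lines, and its sequence also holds a CCAAT box. In it capitals also mark the E2F-type site TTTCCCGC, read there on the other strand. Whether the box goes with the fall was not tested.
Fanca (chr8:123318577-123318696, minus strand): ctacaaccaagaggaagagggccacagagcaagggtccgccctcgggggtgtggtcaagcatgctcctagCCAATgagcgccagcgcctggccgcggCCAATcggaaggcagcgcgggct
Fancm (chr12:65075483-65075602, plus strand): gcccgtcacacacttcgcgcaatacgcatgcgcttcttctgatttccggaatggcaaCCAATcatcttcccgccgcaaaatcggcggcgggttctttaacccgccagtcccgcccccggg
Rad54l (chr4:116123691-116123810, minus strand): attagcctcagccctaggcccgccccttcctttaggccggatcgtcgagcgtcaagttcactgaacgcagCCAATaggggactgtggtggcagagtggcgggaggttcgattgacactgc
Brip1 (chr11:86201194-86201313, minus strand): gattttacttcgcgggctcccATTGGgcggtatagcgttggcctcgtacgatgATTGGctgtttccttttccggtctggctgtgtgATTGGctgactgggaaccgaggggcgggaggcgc
Chek2 (chr5:110839803-110839982, plus strand): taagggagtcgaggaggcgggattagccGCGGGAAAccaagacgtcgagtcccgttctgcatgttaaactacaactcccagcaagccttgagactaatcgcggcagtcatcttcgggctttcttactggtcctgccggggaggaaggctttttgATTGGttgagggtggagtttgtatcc

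Promoters from 250 bases before to 50 bases after the start were found for 26 of the 34 genes. A CCAAT box on either strand stood in 18 of them (69.2%), against 41.1% of 27025 genes. Any of the 4 E2F-type sites TTTCCCGC, TTTGGCGC, TTTCGCGC and TTTGCCGC stood in 6 (23.1%), against 2.6%. The cell cycle homology region TTTGAA stood in 2 (7.69%), against 20.2%. Of the 13 matched genes that fell in all 3 lines, 10 held a CCAAT box and 1 an E2F-type site. Of the other 13 matched genes, 8 held a CCAAT box and 5 an E2F-type site. These matches are descriptions of the letters in the window only.

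The mediators of the Brca1 and Brca2 axis prepare resected ends for strand exchange. Of these 5 genes 4 fell in MelanA, 3 in B16F0 and 3 in B16F10, and Brca1, Brip1 and Palb2 fell in all 3 lines. Of all genes tested 24.7%, 25.0% and 25.3% fell in these lines and 11.7% in all 3. A group of 5 genes is too short to set against these shares. Brca1, a ubiquitin ligase and scaffold, stood at 112 and 108 CPM in untreated MelanA and at 87.4 and 84.8 CPM under SX-682. In B16F10 it went from 88.6 and 88.5 CPM to 60.6 and 61.0 CPM. Treated libraries lay below untreated ones in both lines, as they did for 36.7% and 34.2% of all genes tested. The log2 fold changes of Brca1 were -0.36 ± 0.033 (SE) in MelanA, -0.21 ± 0.034 in B16F0 and -0.54 ± 0.036 in B16F10 (edgeR adjusted p = 2.2e-10, 8e-06 and 8e-14).

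Bard1, the obligate partner of Brca1, was called in opposite directions in different lines. It stood at 27.2 and 26.6 CPM in untreated MelanA and at 17.4 and 18.0 CPM under SX-682. In B16F0 it went from 25.0 and 25.2 CPM to 33.9 and 34.1 CPM. In B16F10 it stood at 19.0 and 20.3 CPM untreated and at 19.1 and 16.4 CPM treated, where the libraries overlapped. Bard1 thus fell by 0.60 ± 0.062 (log2) in MelanA and rose by 0.44 ± 0.061 in B16F0 (edgeR adjusted p = 1.5e-09 and 4.1e-07), and in B16F10 its value was -0.14 ± 0.067 (adjusted p = 0.075). The B16F10 value ran from -0.27 to -0.04 with 1 library left out, and it was called lower without treated library 1 (-0.27) and with at least 10 counts required in every library (-0.15). The test of the difference between B16F0 and MelanA gave 1.04 ± 0.086 (edgeR adjusted p = 6e-11), the widest spread over lines among the 34 genes. The Bard1 gene lies on chromosome 1 from 71027498 to 71103146 (mm10).

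Brip1, a helicase that binds Brca1, fell by 0.50, 0.52 and 0.28 on the log2 scale in MelanA, B16F0 and B16F10. Palb2, which bridges Brca1 and Brca2, was the least abundant of the 34 genes per length in both untreated B16 lines, at 1.001 and 1.18 CPM per kilobase of gene length (RPKM). It fell by 0.25 ± 0.088, 0.58 ± 0.10 and 0.32 ± 0.097 in the 3 lines, and the MelanA call ended with DESeq2, with no filter on low counts (-0.25 each) and when any 1 of the 4 MelanA libraries was left out (log2 -0.28 to -0.21). The B16F10 call of Palb2 ended without untreated library 1 (-0.27) or treated library 1 (-0.28). Brca2, a large mediator protein of recombination, rose in B16F10, from 27.3 and 27.8 CPM to 35.1 and 34.3 CPM (log2 0.33 ± 0.055, edgeR adjusted p = 6.1e-06). Its values were 0.09 in MelanA and 0.00 in B16F0.

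The genes of strand exchange, namely Rad51ap1, the 5 paralogs Rad51b, Rad51c, Rad51d, Xrcc2 and Xrcc3, and the motor proteins Rad54l and Rad54b, split in 2 directions within the group. Rad51ap1, Xrcc2, Xrcc3 and Rad54l fell in all 3 lines, whereas Rad51d rose in all 3. The 5 paralogs assemble into complexes that act in strand exchange, and 3 of them, Rad51b, Rad51c and Rad51d, were never called lower.

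Rad54l, a motor protein that remodels DNA during strand exchange, showed the largest fall of this group. In MelanA it went from 33.4 and 32.4 CPM to 20.6 and 23.1 CPM. The B16F0 libraries went from 30.1 and 29.2 CPM to 18.0 and 18.2 CPM. The B16F10 libraries went from 40.9 and 39.2 CPM to 20.99 and 21.8 CPM, so that treated libraries lay below untreated ones in every line. The log2 fold changes were -0.59 ± 0.055, -0.71 ± 0.060 and -0.91 ± 0.057 (edgeR adjusted p = 2.6e-10, 2.3e-11 and 3.4e-14). Of the exonic bases of Rad54l (chromosome 4, 116094264 to 116123690) 15.4% overlap Lrrc41 on the opposite strand, whose own log2 changes were 0.24, 0.48 and 0.10.

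Xrcc3, the partner of Rad51c in the smaller paralog complex, stood at 15.9 and 13.6 CPM in untreated MelanA and at 10.8 and 10.6 CPM under SX-682. In B16F0 the level went from 17.4 and 16.5 CPM to 11.3 and 11.03 CPM. In B16F10 the level went from 11.4 and 11.2 CPM to 7.93 and 8.45 CPM. Its falls of 0.46, 0.61 and 0.47 (log2) were not called different among the lines (edgeR adjusted p = 0.50). Xrcc2 fell by 0.39, 0.32 and 0.51, and Rad51ap1, an accessory factor of strand exchange, by 0.31, 0.28 and 0.34.

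Rad51c moved otherwise. In MelanA it stood at 26.9 and 24.6 CPM untreated and at 25.2 and 26.2 CPM treated, where the libraries overlapped. In B16F0 it went from 22.8 and 22.3 CPM to 33.7 and 33.2 CPM. In B16F10 it went from 19.5 and 17.8 CPM to 24.8 CPM in both treated libraries. Rad51c therefore rose by 0.57 ± 0.058 in B16F0 and 0.41 ± 0.062 in B16F10 (edgeR adjusted p = 1.6e-09 and 1.1e-06), and both changes differed from that in MelanA (adjusted p = 1.6e-06 and 0.0002).

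Rad51d rose more in B16F0 than in either other line (differences of 0.36 from MelanA and 0.38 from B16F10 in size, edgeR adjusted p = 0.0014 and 0.0015). The B16F0 libraries went from 36.9 and 37.1 CPM to 55.4 and 54.6 CPM (log2 0.57 ± 0.059, edgeR adjusted p = 1.4e-09). In MelanA it stood at 19.0 and 21.9 CPM untreated and at 23.0 and 24.6 CPM treated, and in B16F10 at 20.8 and 18.2 CPM and then 22.7 and 21.99 CPM. The rises in MelanA and B16F10 were small, at 0.22 ± 0.063 and 0.20 ± 0.068. The MelanA call ended without untreated library 1 (0.13) or treated library 2 (0.17), and the B16F10 call without untreated library 2 (0.10) or treated library 1 (0.17). Rad51b rose by 0.51 in MelanA and 0.59 in B16F10 and its value in B16F0 was 0.14 ± 0.098 (edgeR adjusted p = 0.27). Rad54b had values of -0.09, 0.08 and 0.12, and 35.8% of its exonic bases are shared with Fsbp on the same strand, so its counts may mix both genes.

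**Figure D2:**
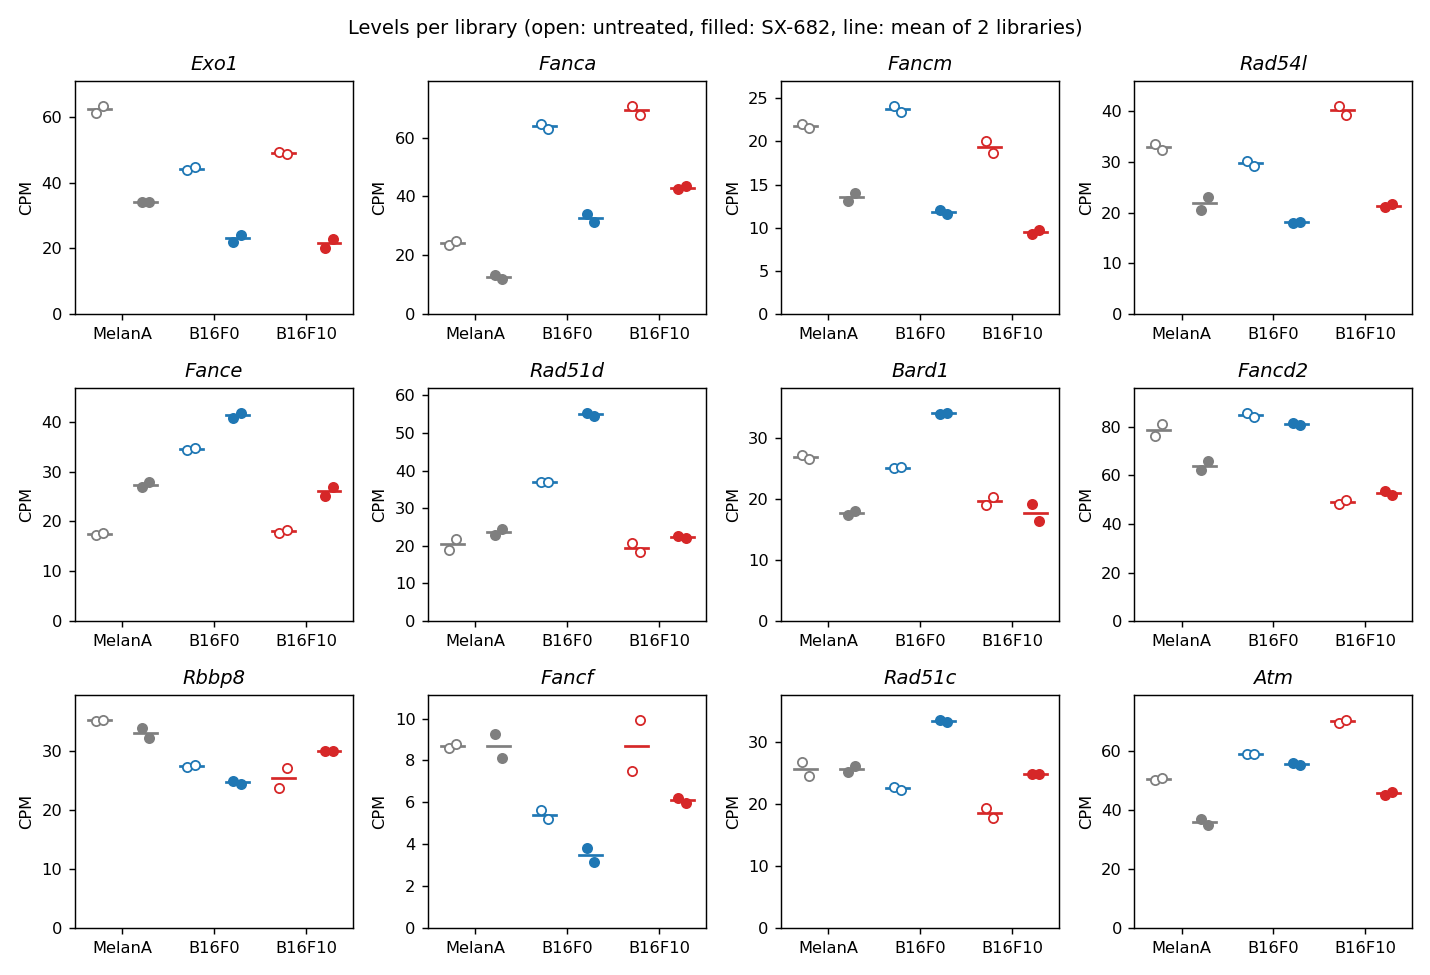
CPM of 12 of the genes in every library, by line (x axis), with untreated libraries as open points, SX-682 libraries as filled points and a line at the mean of 2 libraries. The filled points of Exo1, Fanca, Fancm and Rad54l lie below the open points in all 3 lines, and those of Bard1 lie below in MelanA and above in B16F0.

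The Fanconi core complex is the ubiquitin ligase that marks the Fancd2 and Fanci pair at a crosslink. Of its 8 genes, counting the anchor Fancm, 5 fell in MelanA, 5 in B16F0 and 6 in B16F10, while 1, 2 and 1 rose. Of all genes tested 24.7%, 25.0% and 25.3% fell and 23.4%, 25.1% and 25.5% rose. A group of 8 genes is too short to set against these shares. The median log2 fold changes of the 8 were -0.48, -0.51 and -0.47.

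Fanca, a scaffold subunit, lies on chromosome 8 from 123268300 to 123318576. In MelanA it went from 23.6 and 24.8 CPM to 13.2 and 12.04 CPM. In B16F0 the level went from 64.7 and 63.1 CPM to 34.2 and 31.3 CPM, and in B16F10 from 70.7 and 67.8 CPM to 42.5 and 43.5 CPM. Treated libraries of B16 still lay above untreated libraries of MelanA. The log2 fold changes were -0.94 ± 0.057, -0.96 ± 0.050 and -0.69 ± 0.048 (edgeR adjusted p = 2.2e-14, 4e-16 and 3.3e-13). The fall in B16F10 was smaller than in MelanA by 0.25 and than in B16F0 by 0.27 (adjusted p = 0.0089 and 0.0027). Zfp276, which overlaps 10.5% of the Fanca exonic bases on the opposite strand, had log2 changes of -0.01, -0.65 and -0.28.

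Fancm, the DNA translocase that brings the core complex to chromatin, went from 22.04 and 21.6 CPM to 13.1 and 14.1 CPM in MelanA. In B16F0 it went from 24.1 and 23.4 CPM to 12.1 and 11.6 CPM. The B16F10 libraries went from 19.98 and 18.7 CPM to 9.30 and 9.73 CPM. Its level thus fell most in both B16 lines, with log2 fold changes of -1.0 ± 0.069 and -1.02 ± 0.073, against -0.68 ± 0.065 in MelanA (edgeR adjusted p = 3.1e-13, 4.3e-13 and 3.8e-10). The differences from MelanA were -0.32 and -0.34 (adjusted p = 0.0088 and 0.0072).

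Fancb, an X-linked subunit of the catalytic module, was among the least abundant genes. It went from 7.37 and 7.53 CPM to 4.98 and 5.49 CPM in MelanA, from 3.80 and 3.91 CPM to 2.49 and 1.97 CPM in B16F0, and from 6.28 and 5.57 CPM to 3.76 and 3.54 CPM in B16F10. All treated libraries lay below the untreated ones of their line, with log2 fold changes of -0.51 ± 0.12, -0.77 ± 0.15 and -0.70 ± 0.13. Fancg, which binds Fanca, fell by 0.50, 0.39 and 0.32. Fancl, the ligase subunit itself, fell by 0.46 in MelanA and 0.42 in B16F10 and had a value of -0.20 ± 0.096 in B16F0 (edgeR adjusted p = 0.081). That value ran from -0.35 to -0.05 with 1 library left out, and it was called lower without treated library 2 (-0.35). Vrk2 overlaps 13.7% of the Fancl exonic bases on the opposite strand, with log2 changes of 0.31, 0.53 and 0.81.

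Fancf, an adaptor of the complex, stood at 8.59 and 8.78 CPM in untreated MelanA and at 9.26 and 8.11 CPM under SX-682, where the treated libraries lay on both sides. The B16F0 libraries went from 5.63 and 5.19 CPM to 3.81 and 3.14 CPM. In B16F10 the level went from 7.48 and 9.95 CPM to 6.20 and 5.98 CPM. Fancf fell by 0.63 ± 0.14 in B16F0 and by 0.52 ± 0.12 in B16F10 (edgeR adjusted p = 0.00028 and 0.00063), and the B16F10 call ended without untreated library 2 (-0.30). Gas2, which overlaps 15% of the Fancf exonic bases on the opposite strand, stood at 7.18 to 11.8 CPM over the libraries, near the level of Fancf, and had log2 changes of 0.44, 0.07 and 0.21. Its part in the Fancf values was not tested.

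Fance, which links the core complex to Fancd2, was the only one of the 8 to rise in all 3 lines. In MelanA it went from 17.3 and 17.7 CPM to 26.9 and 27.8 CPM. In B16F0 the level went from 34.3 and 34.8 CPM to 40.8 and 41.8 CPM, and in B16F10 from 17.6 and 18.4 CPM to 25.2 and 27.0 CPM. Every treated library lay above the untreated libraries of its line. The rises were 0.65 ± 0.054, 0.26 ± 0.051 and 0.53 ± 0.057 (edgeR adjusted p = 2.1e-11, 9.4e-05 and 2.9e-09), and the rise in B16F0 was the smaller by 0.39 against MelanA (adjusted p = 0.0001). Fancc rose in B16F0, from 10.7 and 10.5 CPM to 13.9 and 13.2 CPM (0.36 ± 0.079), and had values of -0.06 and -0.07 in MelanA and B16F10.

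The calls of the pair that the core complex ubiquitinates differed by gene and line. Fanci fell in all 3 lines, by 0.47, 0.63 and 0.38. Polg overlaps 16% of its exonic bases on the opposite strand and had log2 changes of -0.17, -0.05 and -0.33. Fancd2 went from 76.2 and 81.2 CPM to 62.1 and 65.9 CPM in MelanA. In B16F0 it stood at 85.7 and 84.1 CPM and then 81.7 and 80.6 CPM, and in B16F10 at 48.3 and 49.9 CPM and then 53.8 and 51.8 CPM. Fancd2 fell by 0.30 ± 0.038 in MelanA (edgeR adjusted p = 1.1e-07) and was called higher in B16F10 at 0.10 ± 0.042 (adjusted p = 0.039). That small B16F10 call ended with DESeq2, with RLE scaling and with no filter on low counts. It also ended without either untreated B16F10 library (0.08 and 0.12), treated B16F10 library 1 (0.07) or either untreated B16F0 library (0.10 each). The difference of 0.40 between B16F10 and MelanA had an edgeR adjusted p of 1.2e-06.

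Exo1, the exonuclease that carries out long-range resection, had the largest fall in all 3 lines of any of the 34 genes when each was ranked by its smallest change. In MelanA it went from 61.3 and 63.3 CPM to 34.3 and 34.2 CPM. In B16F0 it went from 43.9 and 44.6 CPM to 22.1 and 24.2 CPM. In B16F10 it went from 49.3 and 48.7 CPM to 20.1 and 23.0 CPM. The log2 fold changes were -0.87 ± 0.049, -0.94 ± 0.055 and -1.19 ± 0.055 (edgeR adjusted p = 4.4e-15, 6e-15 and 2.1e-17). The fall in B16F10 exceeded those in MelanA and B16F0 by 0.32 and 0.24 (adjusted p = 0.00089 and 0.016). The gene lies on chromosome 1 from 175880581 to 175913489.

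Blm, the helicase that works with Exo1 and dissolves joint molecules, fell by 0.25, 0.39 and 0.18, and the B16F10 call ended without treated library 1 (-0.14). The sensor complex of Mre11a, Rad50 and Nbn, which binds and trims the break, showed no common direction. Mre11a fell by 0.18 ± 0.043 in B16F10 and had values of -0.10 and -0.02 in MelanA and B16F0, the former called lower without untreated library 1 (-0.15). Rad50 rose by 0.26 in B16F0 and 0.28 in B16F10 and had a value of 0.05 in MelanA. Nbn fell by 0.34 in MelanA and 0.28 in B16F10 and had a value of -0.11 in B16F0, called lower without untreated library 1 (-0.18).

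Rbbp8, which encodes the resection cofactor CtIP, was called in opposite directions in the B16 lines. It stood at 27.3 and 27.5 CPM in untreated B16F0 and at 25.0 and 24.4 CPM under SX-682. The B16F10 libraries went from 23.7 and 27.1 CPM to 30.0 CPM in both treated libraries. The changes were -0.15 ± 0.058 and 0.24 ± 0.058 (edgeR adjusted p = 0.032 and 0.00087), and their difference was 0.39 ± 0.082 (adjusted p = 0.00043). The B16F0 call ended with DESeq2 and with RLE scaling (-0.14 each) and without any 1 of the B16F0 libraries (-0.17 to -0.13), and the B16F10 call without untreated library 1 (0.15).

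Among the checkpoint kinases, Chek1, the effector of the replication checkpoint, fell in all 3 lines. It went from 25.9 and 24.7 CPM to 19.1 and 18.1 CPM in MelanA, from 38.3 and 37.4 CPM to 29.8 and 31.8 CPM in B16F0, and from 34.6 and 35.4 CPM to 22.1 and 23.0 CPM in B16F10. The log2 fold changes were -0.44 ± 0.055, -0.30 ± 0.053 and -0.63 ± 0.055 (edgeR adjusted p = 6.1e-08, 1.9e-05 and 4.1e-11). Its upstream kinase Atr did not fall in any line, with 0.06 in MelanA, 0.15 ± 0.051 in B16F0 and 0.10 in B16F10, and the B16F0 call ended without any 1 of the B16F0 libraries (0.14 to 0.15). The B16F10 value of Atr was called higher without untreated library 1 or treated library 2 (0.15 each).

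Atm, the kinase activated by double-strand breaks, divided the lines. It went from 50.1 and 50.8 CPM to 36.8 and 34.9 CPM in MelanA and from 69.4 and 70.6 CPM to 45.1 and 46.2 CPM in B16F10. In B16F0 it stood at 58.8 CPM in both untreated libraries and at 56.1 and 55.3 CPM under SX-682. Atm fell by 0.49 ± 0.040 and 0.62 ± 0.040 in the former lines, and its value in B16F0 was -0.08 ± 0.040 (edgeR adjusted p = 0.11). The B16F0 change differed from those in MelanA and B16F10 by 0.42 and 0.54 in size (adjusted p = 6.7e-07 and 1e-08). Msh6, a mismatch sensor, gave the same order, with falls of 0.34 in MelanA and 0.48 in B16F10 and a value of -0.01 in B16F0. Chek2, the effector of Atm, had values of 0.08 and 0.11 in MelanA and B16F10 and was called lower in B16F0 at -0.12 ± 0.049 (adjusted p = 0.043), a call that ended under 6 other settings and without any 1 of 10 libraries, the 4 of B16F0 included (-0.15 to -0.09).

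The SX-682 change differed among the 3 lines for 22 of the 34 genes by an F-test in edgeR (64.7%, against 47.4% of all genes). It differed between B16F0 and MelanA for 15 (34.4% of all genes), between B16F10 and MelanA for 14 (33.8%), and between B16F10 and B16F0 for 19 (30.3%). These shares of all genes take in genes with few counts. Of the 12326 genes with at least 10 counts in every library, as all 34 have, 8285 differed among the lines. Between the pairs, in the same order, 6181, 6119 and 5547 of them differed. The shares among the 34 are thus not read as a trait of these genes. After Bard1, the widest spreads of the log2 fold change over the lines were those of Fancf (0.63), Rad51c (0.57) and Atm (0.54). These comparisons share libraries with one another.

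The untreated lines differed in most of the 34 genes, as they did in most genes. B16F0 was above MelanA for 13 and below for 17, against 35.3% and 40.6% of all genes. B16F10 was above MelanA for 8 and below for 18, against 33.4% and 40.8%. B16F10 was above B16F0 for 14 and below for 14, against 30.8% and 31.2%. The median difference of the 34 genes was -0.12 for B16F0 and -0.25 for B16F10 against MelanA, where the medians of all genes were -0.06 and -0.10.

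Per length, Msh6 was the most abundant of the 34 in every untreated line, at 26.6 ± 0.0074 RPKM (SD, n = 2) in MelanA, 30.9 ± 0.037 in B16F0 and 34.2 ± 0.37 in B16F10. Rad50 was next in MelanA and B16F0, at 19.7 and 22.03 RPKM, and the third in B16F10, at 14.4 RPKM behind Nbn at 16.3 RPKM. Atr was the least abundant in MelanA, at 1.20 RPKM.

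**Figure D3:**
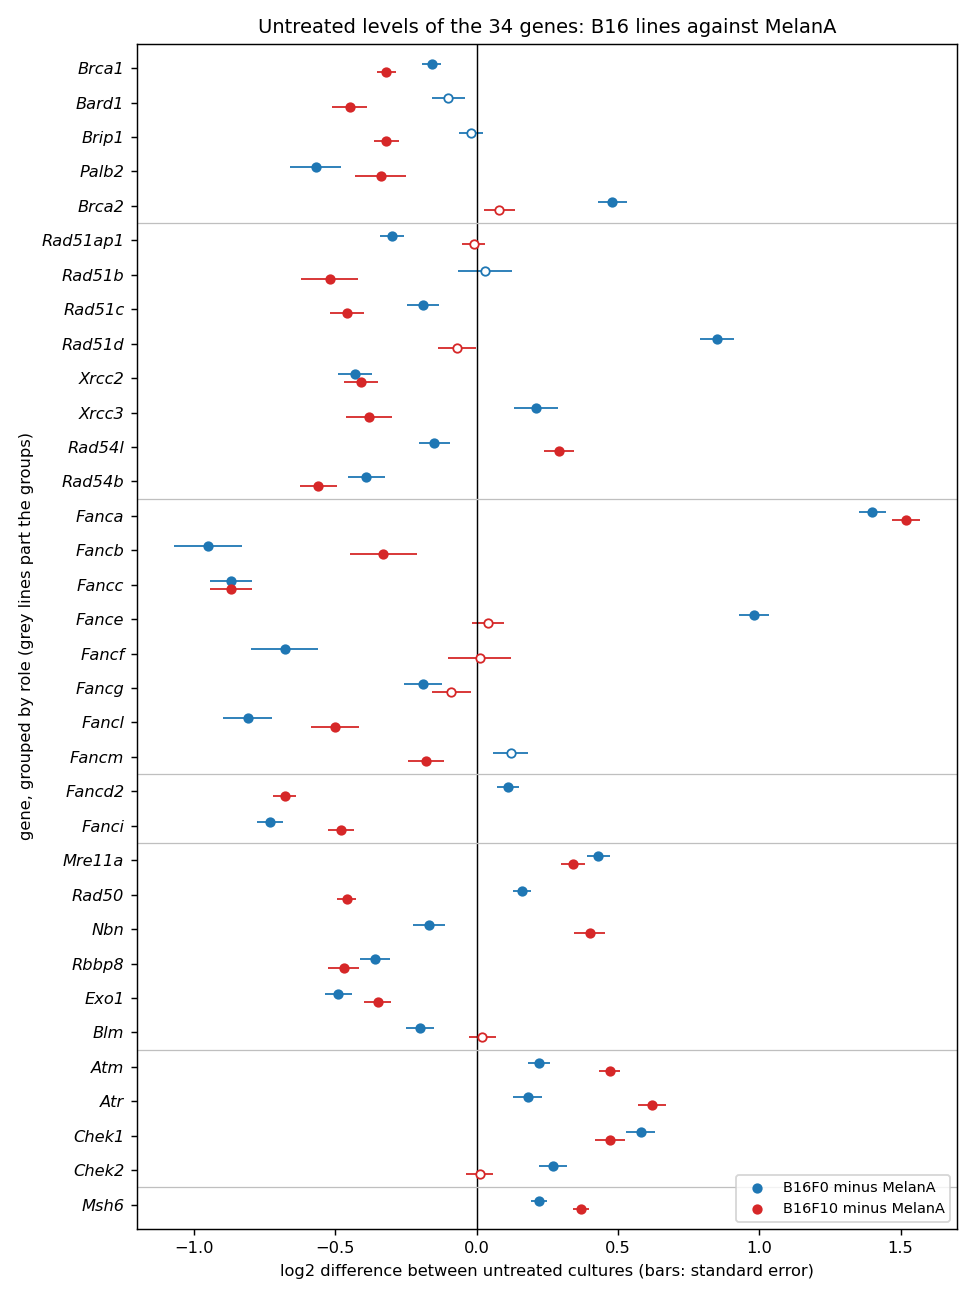
Log2 difference of the untreated level of each gene in B16F0 and B16F10 from that in MelanA (x axis) with standard errors, genes grouped by role (y axis), filled where the adjusted p was below 0.05. Fanca stands farthest to the right in both lines, at 1.40 and 1.52, and Fance and Rad51d stand to the right in B16F0 alone.

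The largest difference between untreated lines was that of Fanca, at 1.40 ± 0.049 in B16F0 and 1.52 ± 0.049 in B16F10 relative to MelanA (edgeR adjusted p = 3.7e-21 and 5.6e-22). Fance and Rad51d were higher in B16F0 than in MelanA by 0.98 ± 0.053 and 0.85 ± 0.061, and B16F10 lay below B16F0 by 0.94 and 0.92 for them. Between B16F10 and MelanA their values were 0.04 and -0.07 (adjusted p = 0.52 and 0.35), and that of Rad51d was called lower without untreated MelanA library 1 (-0.16). Fancb was lower in B16F0 than in MelanA by 0.95 ± 0.12, and in B16F10 it was lower by 0.33 ± 0.12, a call that ended without untreated MelanA library 2 (-0.31) or untreated B16F10 library 2 (-0.23). Fancc was lower in both B16 lines, at -0.87 in each, and Fanci at -0.73 and -0.48. Fancd2 was lower in B16F10 than in B16F0, at -0.79 ± 0.040, as was Rad50 at -0.62 ± 0.033. All 4 checkpoint kinases were higher in B16F0 than in MelanA, by 0.18 to 0.58, the largest being Chek1 at 0.58 ± 0.052. In B16F10 Atr, Atm and Chek1 were higher, at 0.62, 0.47 and 0.47, while Chek2 was at 0.01 (edgeR adjusted p = 0.85). Of all genes 35.3% were higher in B16F0 than in MelanA and 33.4% in B16F10. A group of 4 genes is too short to set against these shares.

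The same reading was made of 73 further repair genes in 5 lists. Of these 36 fell and 14 rose in MelanA, against 24.7% and 23.4% of all genes. In B16F0 33 fell and 14 rose, against 25.0% and 25.1%, and in B16F10 37 fell and 14 rose, against 25.3% and 25.5%. In all 3 lines 25 fell and 8 rose, against 11.7% and 11.3% of all genes. Of 26 other recombination genes 14 fell in all 3 lines, among them the nuclease and helicase Dna2 (-1.24, -1.37 and -1.90), the polymerase Polq of theta-mediated end joining (-1.0, -1.28 and -1.32) and the junction resolvase Gen1 (-1.11, -1.72 and -0.86). Of 19 other checkpoint genes 7 fell in all 3 lines, with Cdc25a (-0.78, -0.58 and -1.61), Clspn (-0.96, -0.51 and -1.01) and Topbp1 (-0.67, -0.45 and -0.64) first when ranked by the smallest change over the lines. Of 14 other Fanconi genes 4 fell in all 3 lines, with the deubiquitinase Usp1 at -0.54, -0.24 and -0.29, and 2 rose, with Faap100 at 0.44, 0.45 and 0.55. The lists of 8 end joining genes, which does not hold Polq, and of 6 other mismatch repair genes are too short to set against these backgrounds, with 0 genes in each that fell in all 3 lines. Paxx of the former (0.57, 0.49 and 0.83) and Pms1 of the latter (0.18, 0.17 and 0.48) rose in all 3.

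**Figure D4:**
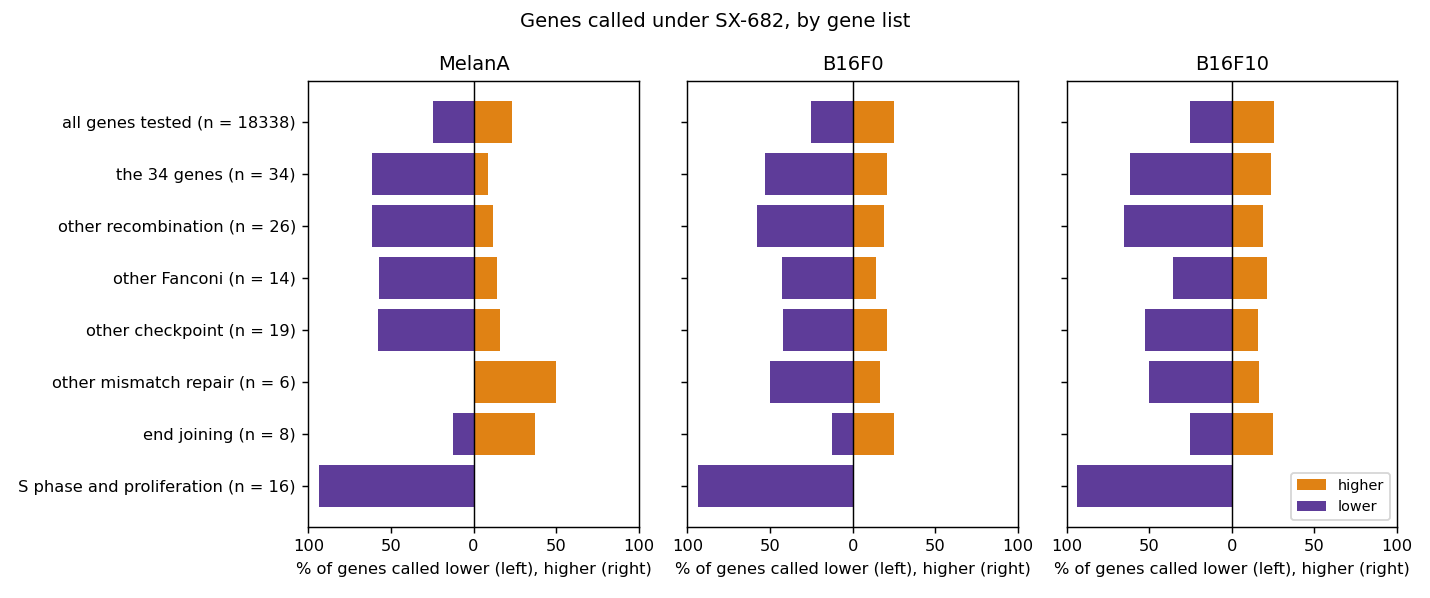
Share of genes called lower (left, %) or higher (right, %) under SX-682 in each line for all genes tested, the 34 genes, 5 lists of other repair genes and a list of S-phase and proliferation genes. The proliferation list has 15 of 16 genes called lower in each line and none higher. The lists of 6 and 8 genes are short, so that 1 gene moves their bars far.

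Most genes of S phase and proliferation also fell under SX-682. Of 16 such genes 15 fell in each line, against 24.7%, 25.0% and 25.3% of all genes, and 14 in all 3, against 11.7%. Rrm2 (-1.28, -0.74 and -1.39), Tyms (-0.52, -0.90 and -0.90) and Pcna (-0.48, -0.51 and -0.90) came first when ranked by the smallest change over the lines. The summed level of the 16 genes went from 5068 and 5076 CPM to 3351 and 3360 CPM in MelanA, from 4798 and 4811 CPM to 3776 and 3802 CPM in B16F0, and from 4881 and 4894 CPM to 3358 and 3399 CPM in B16F10. No gene of the list was at 0 in any group. In these bulk libraries fewer cycling cells and less RNA per cell cannot be told apart, and the part of proliferation in the changes of the 34 genes was not tested. The RNA of Mki67, a proliferation marker, fell by 0.75 in MelanA but stood at 479 and 497 CPM in untreated B16F0 and at 480 and 497 CPM under SX-682, and at 481 and 478 CPM and then 475 and 487 CPM in B16F10. By staining for its protein, the study reported a smaller share of positive cells under SX-682 in both B16 lines. An RNA level in bulk and a share of stained cells are different measures.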

How the data were processed

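RNA-seq counts per gene were the only unit used. The authors deposited raw counts, 1 column per library. The submitters' processing notes name cutadapt, STAR, DESeq2 and mm10, while how reads were counted, and whether by strand, is not given in the sources used here. Without strand, reads of overlapping genes on opposite strands cannot be told apart. Of the genes, 33821 had identifier, version and coordinates of GENCODE M21, from which positions and exon overlaps were taken.

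Groups came from the sample labels. Counts were fitted in edgeR 4.0.16 (R 4.3.3, limma 3.58.1) over all 12 libraries, 1 coefficient per group, after the filterByExpr filter and TMM scaling, with the prior count at 0.125 and p-values adjusted by Benjamini-Hochberg over every gene tested. This left 6 residual degrees of freedom. The quasi-likelihood test also drew on the spread of all genes, with 21.89 prior degrees of freedom, so the p-values rest on both. The standard error is the log2 fold change divided by the root of F. An exact permutation test of 2 against 2 libraries cannot give a 2-sided p below 0.333. RPKM values divide CPM by the gene length in the deposited table. Replicates of each group differed by more than counting noise (chi-square per gene 2.87 to 5.26).

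The fit was tested on simulated counts with known changes. At the counts of these genes large changes were recovered nearly always, whereas differences of 0.5 (log2) between the changes of 2 lines were recovered only in part, so a difference between lines that was not called may have been missed.

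The members and lists were chosen with earlier results of these data known. Every one of the 34 genes could be named. Those described in full were the genes called in all 3 lines with the largest smallest change, those called in opposite directions, those with the largest range over lines or difference between untreated lines, and those whose SX-682 call was lost under an alternative. Calls between untreated lines that were lost are given in the closing section. Of the other lists, up to 3 genes called in all 3 lines were named by largest smallest change. Mki67 was named outside this rule, after its values were seen. The alternatives were DESeq2 1.42.0, RLE scaling, other count filters, a prior count of 2, adjusted p below 0.01, a log2 change of at least 0.5, fits of the compared groups only, a replicate block and each library left out.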

Additional observations from a re-analysis of the deposited data

Results flagged for a closer look

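For 22 of the 34 genes the SX-682 change differed among the lines by the F-test of the difference in edgeR (adjusted p below 0.05). Of all genes 47.4% did so, as did 8285 of the 12326 with at least 10 counts in every library. The value given here is the range of the log2 fold change over MelanA, B16F0 and B16F10. Among the mediators it was 1.04 for Bard1, 0.34 for Brca1, 0.33 for Brca2 and 0.24 for Brip1. Among the strand exchange genes it was 0.57 for Rad51c, 0.46 for Rad51b, 0.38 for Rad51d and 0.32 for Rad54l. In the Fanconi core complex it was 0.63 for Fancf, 0.43 for Fancc, 0.39 for Fance, 0.34 for Fancm and 0.27 for Fanca. The pair marked by that complex had 0.40 for Fancd2 and 0.24 for Fanci. Among the end-processing genes it was 0.39 for Rbbp8, 0.32 for Exo1 and 0.22 for Rad50. The kinases had 0.54 for Atm, 0.33 for Chek1 and 0.23 for Chek2, and Msh6 had 0.47. The sign of the called changes differed between lines for Bard1, Fancd2 and Rbbp8. Of these calls, that of Fancd2 in B16F10 and those of Rbbp8 in B16F0 and B16F10 ended under some alternatives. The differences for Brip1, Rad51b, Fancm, Fanci and Chek2 lost their call without 1 or more libraries, with adjusted p of 0.05 to 0.14 in those fits.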

How the results depend on the processing

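With 2 libraries a group the spread is shared over all 6 groups, and where a library is left out the lone sample of that group is assumed to vary like the others. No called value changed sign under any alternative, and the prior count of 2, which alters only the fold changes, could not alter a call. Of the 24, 25 and 29 SX-682 calls in MelanA, B16F0 and B16F10, 23, 23 and 28 held under every other setting of the test, scaling and filter, and 22, 22 and 23 also with each library left out. Of the 30, 26 and 28 untreated calls (B16F0 and B16F10 against MelanA, B16F10 against B16F0), 28, 25 and 25 held under every such setting and 24 each also with every library left out. Those lost under a setting were Xrcc3 (0.16 to 0.17, and 0.10 without untreated MelanA library 2) and Fancd2 (0.07 to 0.08) for B16F0 against MelanA, Fancm (-0.15) for B16F10 against MelanA, and Palb2 (0.21 to 0.24), Rad54b (-0.17 to -0.16) and Fanca (0.09 to 0.12) for B16F10 against B16F0. Those lost only without a library were Rad51c, Rad54l, Fancg, Nbn, Fancb and Exo1. Requiring a log2 change of at least 0.5 left 6 genes lower in MelanA, 2 higher and 10 lower in B16F0, and 2 higher and 10 lower in B16F10. It left 4 higher and 6 lower for untreated B16F0 against MelanA, 2 and 5 for B16F10 against MelanA, and 3 and 6 for B16F10 against B16F0. For the difference of the SX-682 changes it left 2 higher and 1 lower between B16F0 and MelanA, 0 and 1 between B16F10 and MelanA, and 0 and 2 between B16F10 and B16F0. These drops follow from the size requirement. In the difference between B16F0 and MelanA, 5 genes were called lower, which became 3 at an adjusted p below 0.01 and 3 with DESeq2. That count was 2 without treated MelanA library 2 and 3 without treated B16F0 library 2, with a range of 2 to 6 over the left-out libraries. The 10 genes called higher between B16F10 and B16F0 became 6 at an adjusted p below 0.01. The cause of the changes with DESeq2 was not tested.

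Same-numbered libraries did not deviate together (correlations of -0.0248, 0.0479 and -0.0132 over 9651 genes in MelanA, B16F0 and B16F10), so no pairing by number was seen. The labels do not say whether same-numbered libraries share an origin, and the correlations cannot exclude it. With a replicate block 17 genes fell in B16F0 in place of 18, 8 in place of 9 were lower in the difference between B16F10 and B16F0, and 23 in place of 22 differed among the lines. The other counts were equal.

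Values near 0 that were not called took the other sign under some settings. With DESeq2 or RLE scaling Rad51c and Fancf in MelanA and Brca2 in B16F0 were at 0.01 and Msh6 in B16F0 at 0.00. With at least 10 counts in every library the same values were 0.01, 0.01, 0.01 and 0.00, with no filter Rad51c and Fancf were at 0.01, with only the compared groups Rad51c was at 0.01 and Fancf and Brca2 at 0.00, and with the block Rad51c was at 0.00. In untreated cells, under DESeq2, RLE scaling and the filter of 10 counts in turn, Rad51b (B16F0 against MelanA) was at -0.01, -0.01 and -0.02. For B16F10 against MelanA these settings gave -0.03, -0.02 and -0.06 for Fancf, -0.01, -0.01 and -0.05 for Blm, and -0.02, -0.02 and -0.05 for Chek2, and the filter gave -0.02 for Fance. Rad51ap1 was at 0.01 with no filter and with only the compared groups. For B16F10 against B16F0, Xrcc2 was at 0.00 with the filter of 10 counts and Fancc at 0.00 with no filter. With each library left out in turn the values ran from -0.06 to 0.07 for Rad51c and from -0.09 to 0.10 for Fancf in MelanA, from -0.08 to 0.06 for Brca2 and from -0.04 to 0.02 for Msh6 in B16F0, and from -0.18 to 0.04 for Fancc in B16F10. In untreated B16F0 against MelanA they ran from -0.07 to 0.04 for Brip1 and from -0.01 to 0.07 for Rad51b. In untreated B16F10 against MelanA they ran from -0.03 to 0.02 for Rad51ap1, from -0.16 to 0.04 for Rad51d, from -0.21 to 0.20 for Fancf and from -0.02 to 0.06 for Blm, and against B16F0 from -0.11 to 0.11 for Fancc.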
